A study of Mus musculus with 24 samples.

Results

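P19 embryonal carcinoma cells were treated with BMS961, a synthetic retinoid that the labels describe as specific for the retinoic acid receptor RARγ, and their transcripts were measured on 5 arrays, 1 each at 2, 6, 24, 48 and 72 h. These arrays were taken by their titles from the 24 arrays of the series and set against the 4 arrays titled EtOH, the solvent control. P19 is a mouse embryonal carcinoma line, a pluripotent tumour line that retinoic acid drives toward neural fates. The series compared all-trans retinoic acid (ATRA) with agonists labelled for RARα (BMS753), RARβ (BMS641) and RARγ (BMS961), each over the same 5 times.

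All groups were P19 cells grown as monolayers on gelatine-coated plates, in medium with fetal calf serum and delipidated calf serum, each at 5%. BMS961 and BMS641 were used at 0.1 µM, ATRA and BMS753 at 1 µM. The EtOH arrays carry no time label, so hours in culture and treatment cannot be told apart for genes that differed at the late times. Each time of BMS961 is 1 array, and nothing in the labels tells if the EtOH arrays stem from separate cultures. The p-values therefore measure the spread between arrays, which may be technical, and for BMS961 also the spread between times.

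Retinoic acid receptors are nuclear receptors that bind DNA as partners of the retinoid X receptors. They sit on a direct repeat of a 6-base half-site and recruit corepressors without ligand and coactivators with it. Rarb, which encodes RARβ, and Cyp26a1, which encodes the cytochrome P450 that breaks down retinoic acid, are classic direct targets and feed back on the pathway. RARγ is the receptor of the family best known in early embryonic and embryonal carcinoma cells.

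The promoters of these 2 targets are printed because both genes rose with BMS961 and both hold the textbook repeat. Both are from RefSeq on GRCm38.p6, 250 bases before to 50 bases after the gene start, in the direction of the gene. Capitals mark a direct repeat with a spacer of 5 bases (DR5), on either strand. Each half-site reads A or G, then G, then G or T, and ends in TCA. The Rarb window is chr14:16575427-16575726 on the minus strand, with the repeat from 53 to 37 bases before the start base (positions -53 to -37). The Cyp26a1 window is chr19:37697558-37697857 on the plus strand, with the repeat at positions -32 to -16, on the opposite strand of the gene.
Rarb: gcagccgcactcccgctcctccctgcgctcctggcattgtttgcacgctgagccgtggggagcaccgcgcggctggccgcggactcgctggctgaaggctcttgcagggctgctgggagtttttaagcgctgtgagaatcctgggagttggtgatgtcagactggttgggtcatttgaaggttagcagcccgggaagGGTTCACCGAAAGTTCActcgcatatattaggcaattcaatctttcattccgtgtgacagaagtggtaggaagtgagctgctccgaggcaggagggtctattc
Cyp26a1: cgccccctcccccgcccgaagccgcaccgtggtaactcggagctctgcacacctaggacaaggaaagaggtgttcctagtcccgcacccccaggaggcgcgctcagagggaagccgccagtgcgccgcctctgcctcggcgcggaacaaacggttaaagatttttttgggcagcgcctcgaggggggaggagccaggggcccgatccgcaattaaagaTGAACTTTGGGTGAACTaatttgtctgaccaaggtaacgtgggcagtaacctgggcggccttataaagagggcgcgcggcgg
Among all 32851 RefSeq promoter windows of this length, 32 (0.0974%) held a DR5, and by gene 31 of 27025 (0.115%) did. Of the 209 genes higher at the late times, 157 had a promoter in the table, and Rarb and Cyp26a1 were the 2 with a DR5. Of the 162 genes lower at the late times, 129 had a promoter and 0 held a DR5. Repeats with a spacer of 2 bases (DR2) or 1 base (DR1) were searched for too. Of the 157 genes, 2 held a DR2 (Slc45a3 and Tinagl1) and 0 a DR1, and of the 129 genes 0 held either. Among all genes with a promoter, 0.311% held a DR2 and 0.263% a DR1. The windows of Dhrs3, Gfra1, Meis2, Plk3, Cltb and Alpl held no DR5, which says only that these letters are not in those 300 bases.

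The 9 arrays were alike in scale. Medians over all probe sets lay between 6.50 and 6.56 on the log2 scale, and the SD of the difference between a pair of EtOH arrays, over genes, ranged from 0.0941 to 0.143. The labelled cell type was checked with 8 markers of embryonal carcinoma cells. Pou5f1, which encodes the pluripotency factor OCT4, lay between 12.78 and 12.99 in all 9 arrays. Sox2 lay between 11.49 and 11.72, Lin28a between 11.39 and 11.52, and Utf1 between 11.70 and 11.88. Tdgf1, Sall4 and Nanog lay between 8.82 and 11.74. Dppa5a was low, between 5.14 and 5.81 across the 9 arrays. These are bulk RNA samples, so fewer cells of a type and less RNA per cell cannot be told apart.

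BMS961 gave a small response over the 5 times, led by Rarb and mostly upward. Among called genes Rarb, Cltb, Plk3 and Dhrs3 rose the most. All 5 BMS961 arrays lay above all 4 EtOH arrays for each of them, as they did for 405 of all genes (2.03%). For 209 genes (1.05%) all 5 lay below. With 1 mean for BMS961 and 1 for EtOH (limma, adjusted p under 0.05 over 19938 genes), 73 genes were called (0.366%), 66 higher (0.331%) and 7 lower (0.0351%). Changes are log2 differences ± SE, from 5 BMS961 and 4 EtOH arrays over all times. The median change of all genes was 0.007. Rarb and Cltb were the 2 called genes with a change of at least 2-fold.

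Rarb read 6.89, 6.90, 7.06 and 7.02 in the 4 EtOH arrays and 7.72, 8.33, 8.58, 8.56 and 8.39 at 2, 6, 24, 48 and 72 h of BMS961. The lowest BMS961 array was already clear of the highest EtOH array at 2 h, and the level stood highest at 24 and 48 h. The change over all times was 1.35 ± 0.13, adjusted p = 5.43e-05, or 2.55-fold. Dhrs3, which encodes a reductase that turns retinaldehyde back to retinol, read 8.71, 8.71, 8.76 and 8.81 with EtOH and 9.40, 9.51, 9.60, 9.68 and 9.65 with BMS961. Its 5 arrays lay close together above the controls, with a change of 0.82 ± 0.053, adjusted p = 7.88e-07. Plk3, a polo-like kinase of stress signalling, read 8.79, 8.89, 8.72 and 8.74 with EtOH and 9.80, 9.46, 9.53, 9.75 and 9.71 with BMS961. It was highest at 2 h, lower at 6 and 24 h, and near the 2 h level at 48 and 72 h. The change was 0.87 ± 0.064, adjusted p = 3.00e-06. These 3 genes were the ones still called when the test required a change of more than 1.2-fold.

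Cltb, which encodes a clathrin light chain, read 7.58, 7.31, 7.26 and 7.59 in the EtOH arrays and 7.89, 8.48, 8.77, 8.94 and 8.73 with BMS961. Its EtOH arrays fell into a lower and a higher pair, both below every BMS961 array. The change was 1.13 ± 0.15, adjusted p = 0.00222, and the call was lost with robust variance moderation (adjusted p = 0.130). Among the other named rises, Alpl, the tissue-nonspecific alkaline phosphatase, changed by 0.62 ± 0.084, adjusted p = 0.00222. Csn3, the milk protein kappa-casein, changed by 0.68 ± 0.093, adjusted p = 0.00222, at low levels between 5.28 and 5.86 with BMS961. Prkcq, protein kinase C theta, changed by 0.59 ± 0.087, adjusted p = 0.0045. Alpl, Dcaf12l1 and Nr0b1 lost their calls over all times with robust variance moderation. Dcaf12l1 (0.69 ± 0.11) and Adgra2 (0.57 ± 0.096), an adhesion receptor of Wnt7 signalling, were also called. Adgra2 stood lowest at 72 h, at 7.18 against at most 7.09 in EtOH, and lost its call without the first or the third EtOH array. Porcn (0.74 ± 0.15), the acyltransferase that lipidates Wnt proteins, and Plekhb1 (0.69 ± 0.13) were called over all times, but lost that call without any 1 of the 4 EtOH arrays (adjusted p of at least 0.0576 under the settings that ended these calls).

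The 7 genes that fell did so by at most 1.45-fold. H1f2, a linker histone, read 8.52, 8.43, 8.43 and 8.11 in the EtOH arrays and 8.07, 7.79, 7.76, 7.82 and 7.75 with BMS961. The fourth EtOH array was closest to the BMS961 arrays and did not overlap them, and the change was -0.53 ± 0.080, adjusted p = 0.00452. Histone genes share much sequence, and how far the probes separate them is not known here. Vstm2a fell by 0.38 and Pxdc1 by 0.43. Irs4, an insulin receptor substrate, fell by 0.40, and Spry3, a Sprouty protein, by 0.35. Bex2 fell by 0.32 and Cx3cl1, the chemokine fractalkine, by 0.20. The calls of H1f2 and Vstm2a held without each array in turn, whereas those of the other 5 each ended when a single array was left out. Leaving out the first, the third or the fourth EtOH array gave 42, 38 or 39 calls, leaving out the 24 h array 43, and leaving out the 2 h array 251.

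**Figure D1:**
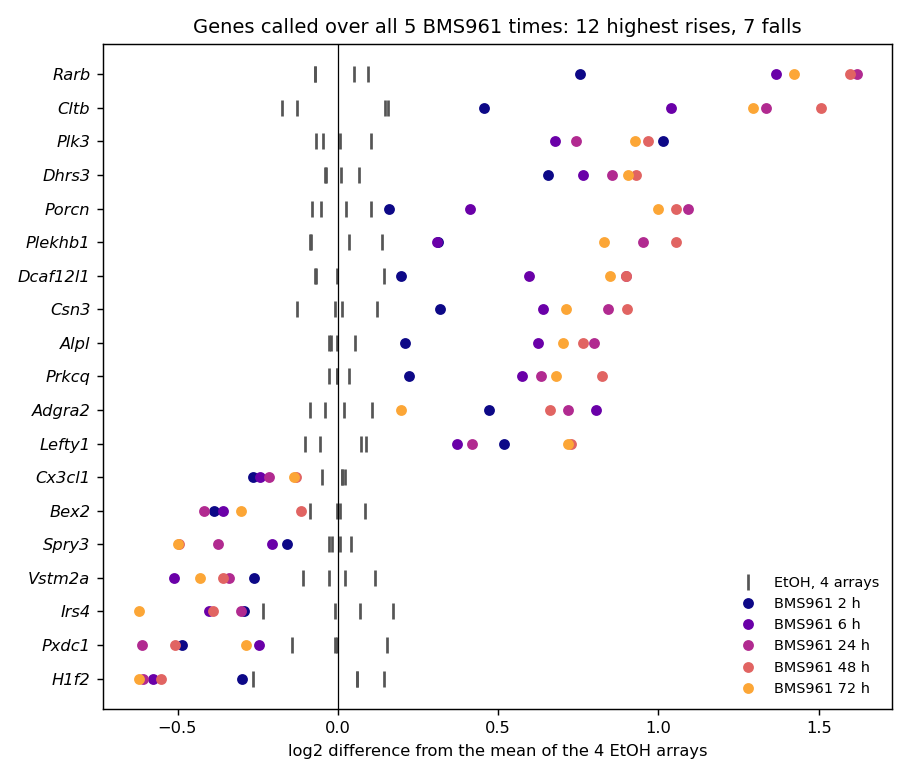
Log2 difference from the mean of the 4 EtOH arrays (x axis) for the 12 named rises and the 7 falls over all times; bars are the EtOH arrays and coloured points the 5 BMS961 arrays, 1 per time. For all 19 genes the BMS961 points lie to 1 side of the EtOH bars, and for Rarb, Cltb, Porcn and Alpl the 2 h array lies closest to them.

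The members of the retinoid pathway were then taken in turn. Among all genes tested, 0.366% were called over all times and 1.86% late. Of 6 retinoid receptor genes, Rarb was called over all times, and Rarb and Rxrg at the late times. Rarg, the receptor that BMS961 is labelled for, read 9.17, 9.18, 9.17 and 9.11 in EtOH and 9.16, 9.14, 9.20, 9.18 and 9.21 with BMS961. Its groups overlapped, with a difference of 0.024 ± 0.037, adjusted p = 0.9. For Rara the difference was 0.10 ± 0.040, adjusted p = 0.477. It was 0.064 ± 0.057 for Rxra and 0.006 ± 0.048 for Rxrb, and none of the 3 was called. Rxrg, a retinoid X receptor, was at the EtOH level at 2 h (9.20) and between 9.62 and 9.72 from 6 h on. Its late change was 0.42 ± 0.089, adjusted p = 0.0167, a call lost with robust variance moderation and without the third or the fourth EtOH array or the 48 or 72 h array. Nrip1, a corepressor of ligand-bound nuclear receptors, rose slightly (0.23 ± 0.041, adjusted p = 0.0163) and was the 1 of 13 measured coregulators to be called. Its call ended without the first or second EtOH array or the 48 h array.

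Of 18 measured genes for retinoid synthesis, transport and breakdown, Dhrs3 was called over all times, and Dhrs3, Cyp26a1 and Crabp2 were called late. The shares over all genes were 0.366% over all times and 1.86% late. Cyp26a1 read 6.20, 6.05, 6.50 and 6.41 in the EtOH arrays and 6.48, 6.79, 7.38, 7.69 and 7.76 with BMS961. The 2 h array lay within the EtOH range, and the level climbed at each later time. The late change was 1.32 ± 0.11, adjusted p = 1.47e-06, or 2.49-fold. Crabp2, a cellular retinoic acid binding protein, was between 7.97 and 7.99 early and between 7.50 and 7.72 late, against 7.79 to 7.91 in EtOH. Its late change was -0.26 ± 0.061, adjusted p = 0.0307, and it was not called without any 1 of the first, the third and the fourth EtOH arrays or without the 48 or 72 h array. The other P450 genes of retinoic acid breakdown, Cyp26b1 (0.056 ± 0.072 late) and Cyp26c1 (0.051 ± 0.077), were not called. Neither were the retinaldehyde dehydrogenases Aldh1a1, Aldh1a2 and Aldh1a3, between -0.033 and 0.11 late, or Stra6, the retinol uptake receptor (0.097 ± 0.065). The median change of the 18 genes late was 0.051, against 0.0069 for all genes.

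More genes were called at the late times (24, 48 and 72 h) than early. The late mean rests on 3 arrays and the early mean on 2, so the 2 counts differ in power. Gfra1, Greb1l and Meis2 rose furthest, after being at or below the EtOH level at 2 h. Rarb, which was above every EtOH array at 2 h, came next. At these times 371 genes were called (1.86%), 209 higher (1.05%) and 162 lower (0.813%), and the 7 with at least a 2-fold change were all higher. They were Gfra1, Greb1l, Meis2, Rarb, Cltb, Cyp26a1 and Porcn. Of 19 measured genes listed as known retinoid-responsive, 7 were called higher late, none lower, with a median of 0.11. The list was drawn up with results of these data known.

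Gfra1, the co-receptor for the growth factor GDNF, read 7.50, 7.63, 7.68 and 7.58 in the EtOH arrays and 7.30, 8.29, 9.35, 9.62 and 9.55 with BMS961. It was below every EtOH array at 2 h and above all of them from 6 h on. The late change was 1.91 ± 0.14, adjusted p = 7.01e-07, or 3.75-fold. Its signalling partner Ret read between 6.31 and 6.44 with BMS961 and between 6.40 and 6.43 with EtOH, and was not called (late -0.034 ± 0.061). Meis2, a homeodomain cofactor of HOX proteins, read 7.08, 6.91, 7.09 and 7.00 with EtOH and 7.02, 7.11, 7.88, 8.78 and 9.07 with BMS961. It was barely above the highest EtOH array at 6 h, clear of it at 24 h and highest at 72 h, with a late change of 1.56 ± 0.17, adjusted p = 4.27e-05. Greb1l read 7.54, 7.61, 7.62 and 7.49 with EtOH and 7.20, 8.37, 8.80, 9.27 and 9.37 with BMS961. Like Gfra1 it was below EtOH at 2 h and above it from 6 h, with a late change of 1.58 ± 0.18, adjusted p = 5.43e-05, and robust variance moderation ended that call (adjusted p = 0.0582). None of Gfra1, Meis2, Greb1l or Cyp26a1 was called over all times together (adjusted p = 0.2, 0.344, 0.226 and 0.0683). Their mean differences over all times were 1.22 ± 0.34, 0.95 ± 0.32, 1.04 ± 0.30 and 0.93 ± 0.20 in that order.

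**Figure D2:**
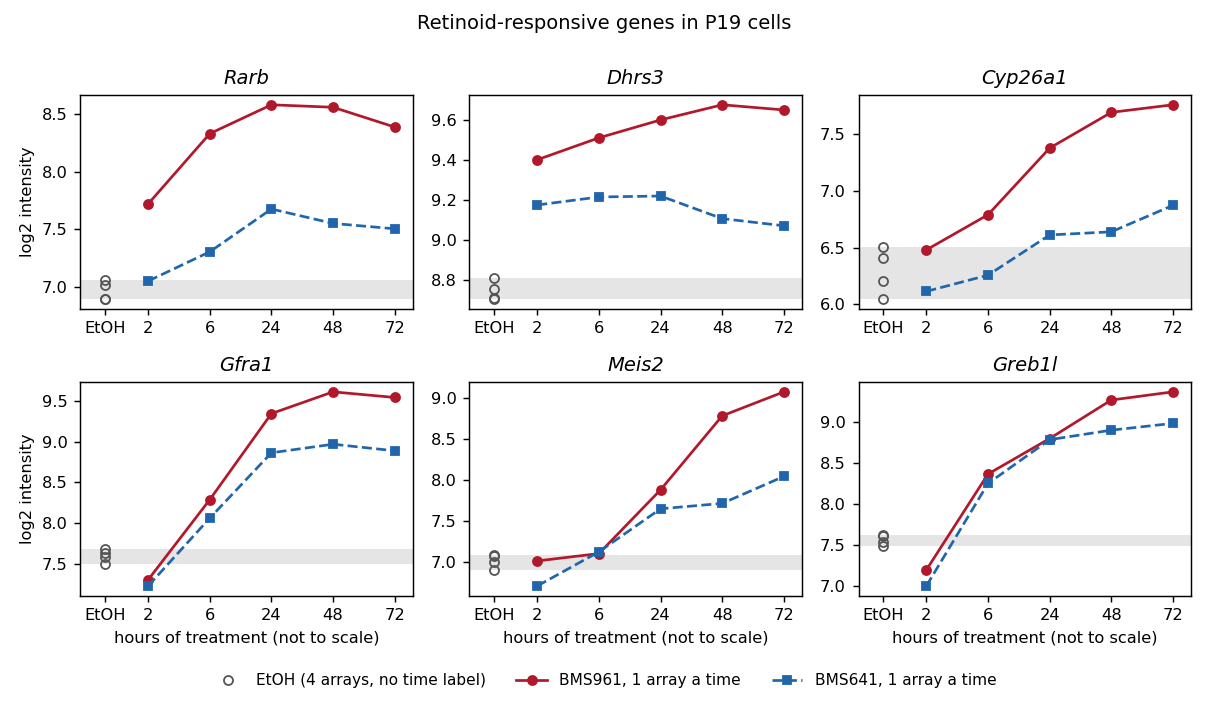
Log2 intensity of 6 retinoid-responsive genes with EtOH (open circles and grey band, 4 arrays without a time label), BMS961 (red) and BMS641 (blue), 1 array at each time; the time axis is not to scale. Rarb and Dhrs3 lie above the EtOH band at every BMS961 time, whereas Gfra1 and Greb1l start below it at 2 h and Meis2 is clear of it from 24 h.

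The genes that follow changed less at the late times than Gfra1, Meis2 and Greb1l. Porcn read 8.21, 8.37, 8.19 and 8.29 in the EtOH arrays and 8.43, 8.68, 9.36, 9.32 and 9.26 with BMS961. It stepped up between 6 and 24 h and then stayed level, with a late change of 1.05 ± 0.062, adjusted p = 2.77e-08. Plekhb1 changed late by 0.95 ± 0.073, adjusted p = 8.07e-07. Gbx2, a homeobox gene of the hindbrain boundary, changed by 0.63 ± 0.077, adjusted p = 0.000164. Meis1 changed by 0.43 ± 0.082, adjusted p = 0.00837, a call that ended without the 48 or 72 h array. Of 14 measured Hox genes of paralogue groups 1 to 5, 3 were higher late. Among all genes tested, 1.05% were called higher late and 0.813% lower. Hoxa2 was between 5.08 and 5.42 in EtOH and at 5.54, 5.86 and 6.12 at 24, 48 and 72 h (0.58 ± 0.11, adjusted p = 0.0066). Hoxb1 changed by 0.42 ± 0.087 and Hoxb2 by 0.51 ± 0.11, and each lost its call without the 48 or 72 h array. Of 23 measured Hox genes of groups 6 to 13, Hoxb9 was called late (0.22 ± 0.056), a call that ended without any 1 of the EtOH arrays. The median late change was 0.095 for the first Hox list and 0.054 for the second.

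Among 34 measured genes of the pluripotent state, 6 were called higher late and 0 lower, with a median of 0.043. Over all genes 1.05% were called higher late and 0.813% lower. The 6 were Nanog, Dppa2, Nr0b1, Nodal, Lefty1 and Lefty2. Of these, Nodal, Lefty1 and Lefty2 are also members of the Nodal and BMP signalling list, so the calls of these lists overlap. Nanog, a pluripotency transcription factor, read 8.85, 8.82, 8.91 and 8.87 in the EtOH arrays and 8.89, 8.87, 9.20, 9.35 and 9.47 with BMS961. Its early arrays lay with EtOH and its late arrays above, with a late change of 0.48 ± 0.056, adjusted p = 8.65e-05. BMS641 gave 9.01, 8.82, 9.12, 9.25 and 9.47 at the same times, and the 2 agonists were not told apart (0.024, 95% interval -0.051 to 0.100). Dppa2 changed late by 0.40 ± 0.064, adjusted p = 0.00166, and Nr0b1, an orphan nuclear receptor of embryonic stem cells, by 0.60 ± 0.075, adjusted p = 0.000213. Pou5f1 was not called, with a late change of -0.047 (95% interval -0.12 to 0.029), and neither was Sox2 (0.14 ± 0.035, adjusted p = 0.0586), which was called when the dimmest 33.3% of genes or the 2 or 6 h array was left out.

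The named genes lower late changed by at most 1.61-fold. C1s2, a complement protease, fell by 0.69, with EtOH arrays spread from 7.23 to 7.74 and a call lost with robust variance moderation. Pcolce, an enhancer of collagen processing, read 8.66, 8.69, 8.74 and 8.65 with EtOH and 8.99, 8.83, 8.51, 8.04 and 7.91 with BMS961. It was above EtOH early and below it late (-0.53 ± 0.097, adjusted p = 0.00641), and the late call ended with robust variance moderation and without the 48 h array. Slc4a11, a membrane transporter, fell late by 0.51, Kctd12b by 0.52 and Tmem130 by 0.48. Tek, the angiopoietin receptor, fell by 0.51. Without the 48 h array 143 genes were called late, without the 72 h array 172, and without the third or the fourth EtOH array 213 or 226.

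At 2 and 6 h fewer genes were called than late, from 2 arrays rather than 3. In all 40 genes were called (0.201%), 36 higher (0.181%) and 4 lower (0.0201%). Rarb was the 1 with at least a 2-fold change (1.06 ± 0.12, adjusted p = 0.000215), and Plk3 (0.85), Cltb (0.75) and Dhrs3 (0.71) followed. Of the 40 genes, 24 were also called late, which is 60% of the early and 6.47% of the late calls; these comparisons share the EtOH arrays. Of 22 measured Nodal and BMP signalling genes, Nodal, Lefty1 and Lefty2 were higher early and 0 lower, with a median over the 22 of -0.0125 against 0.009 for all genes. Nodal, a TGFβ family ligand, read 9.50, 9.22, 9.41 and 9.54 in the EtOH arrays and 9.97, 9.74, 9.76, 9.88 and 9.86 with BMS961. All 5 BMS961 arrays were above EtOH, the 2 h array most (0.44 ± 0.076, adjusted p = 0.0163 early). Lefty1, a secreted inhibitor of Nodal and itself a Nodal target, read 10.47, 10.30, 10.34 and 10.48 with EtOH and 10.92, 10.77, 10.82, 11.13 and 11.11 with BMS961 (0.45 ± 0.074, adjusted p = 0.0143 early). Lefty2 changed early by 0.52 ± 0.089, adjusted p = 0.0163. With BMS641 the early differences were 0.36 for Nodal, 0.36 for Lefty1 and 0.025 for Lefty2, none called. At 2 h BMS641 stood 0.62 above EtOH for Nodal and 0.63 for Lefty1, against 0.55 and 0.52 with BMS961, and none of the 22 genes was called between the agonists. The 3 early calls ended without the third EtOH array, without the 2 h array, or with the BMS641 arrays added to the fit.

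Gata6, a transcription factor of primitive endoderm, read 7.50, 7.40, 7.63 and 7.49 in the EtOH arrays and 7.95, 8.01, 7.93, 7.93 and 7.80 with BMS961. Every BMS961 array lay above EtOH (0.47 ± 0.072, adjusted p = 0.0076 early), and it was the 1 of 31 measured endoderm genes to be called. The early call ended without the 6 h array. Among all genes tested, 0.181% were called higher early and 0.0201% lower. Enpp4 read 7.82, 7.72, 7.90 and 7.98 with EtOH and 8.57, 8.52, 8.13, 7.83 and 7.48 with BMS961, high early and back within or below the EtOH range by 48 and 72 h (0.69 ± 0.12, adjusted p = 0.0163 early, not called without the third EtOH, the 2 h or the 6 h array). Elavl3, an RNA-binding protein of neurons, changed early by 0.44 ± 0.059, adjusted p = 0.00307. It was the 1 of 39 measured neuron genes to be called early, and the median of that list was -0.0126. Among the 4 falls, Rpl10l fell by 0.53, Gabra4, a GABA receptor subunit, by 0.52 and Cx3cl1 by 0.25. The early calls of Cltb, Gabra4 and Cx3cl1 each ended without the third EtOH array or the 6 h array. Without the third or the fourth EtOH array 18 or 26 genes were called early, without the 2 h array 64 and without the 6 h array 24.

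The fourth early fall was Mir302d, of the Mir302 cluster, a group of microRNA genes of pluripotent cells. The cluster was singled out after its values were seen. Mature forms from RefSeq are printed to show the seed (bases 2 to 8, in capitals), which miR-302b-3p and miR-302d-3p share and which is shifted by 1 base in miR-302c-3p.
mmu-miR-302b-3p: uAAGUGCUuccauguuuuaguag
mmu-miR-302c-3p: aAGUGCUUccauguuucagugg
mmu-miR-302d-3p: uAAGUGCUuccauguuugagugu
Mir302d read 8.05, 7.92, 7.77 and 7.72 in the EtOH arrays and 6.83, 7.35, 7.25, 7.55 and 7.94 with BMS961. It was lowest at 2 h and back within the EtOH range at 72 h. The early change was -0.77 ± 0.15, adjusted p = 0.0392, a call that ended without any 1 of the 4 EtOH arrays or without the 2 or 48 h array. Mir302c read 7.30, 7.05, 7.38 and 7.26 with EtOH and 6.17, 6.81, 6.80, 6.98 and 7.55 with BMS961, and missed the threshold early (-0.76 ± 0.17, adjusted p = 0.0945). Mir302a (-0.72 ± 0.18, adjusted p = 0.194) and Mir302b (-0.52 ± 0.26, adjusted p = 0.736) were not called early either. BMS641 differed from EtOH by -0.77, -0.55, -0.52, -0.29 and 0.046 for Mir302d at the same 5 times, and BMS961 by -1.04, -0.51, -0.61, -0.31 and 0.074. The 2 agonists were not told apart (adjusted p = 0.938). The labels do not tell if these probe sets read the primary transcript or the mature form.

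**Figure D3:**
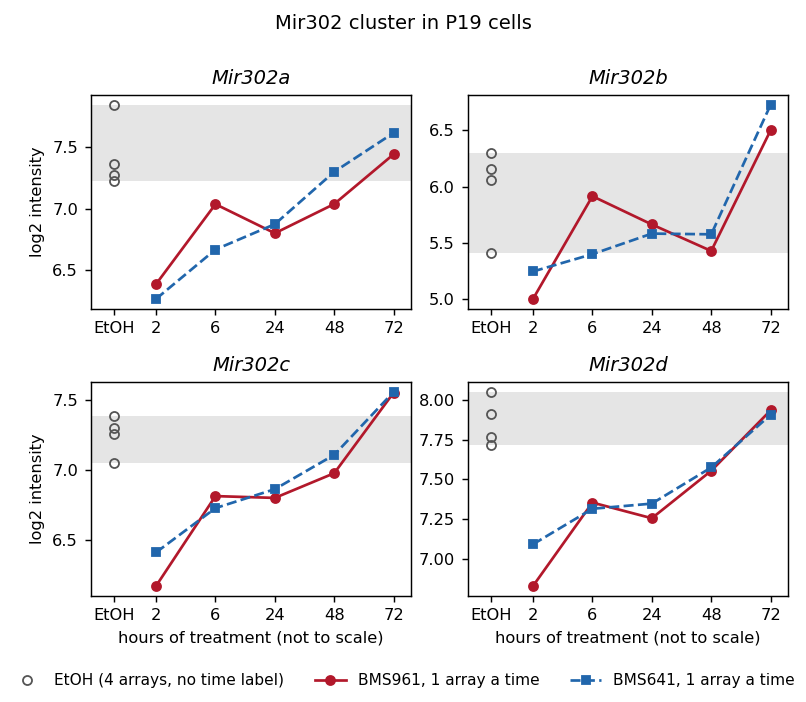
Log2 intensity of the 4 Mir302 genes with EtOH (open circles and grey band), BMS961 (red) and BMS641 (blue), 1 array at each time; the time axis is not to scale. With both agonists the 2 h array is the lowest of its course for all 4 genes, and the 72 h array is the highest.

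Late and early BMS961 arrays were compared directly. This contrast does not rest on the level of the EtOH arrays, but time in culture runs along with time of treatment. It called 181 genes (0.908%), 96 higher late (0.481%) and 85 lower (0.426%), and 103 of them were among the 371 late calls. Gfra1 (1.71 ± 0.17, adjusted p = 0.000119), Meis2 (1.52 ± 0.20, adjusted p = 0.00148) and Greb1l (1.36 ± 0.21, adjusted p = 0.00438) rose most. Robust variance moderation ended all 3 calls (adjusted p = 0.0510, 0.142 and 0.223). Edil3, a secreted integrin ligand, read 6.97, 6.78, 6.95 and 6.95 with EtOH and 6.35, 6.72, 7.17, 7.55 and 7.80 with BMS961, low early and high late (0.97 ± 0.14, adjusted p = 0.00186). Glra2, a glycine receptor subunit, changed by 0.82 ± 0.085, adjusted p = 0.000132. BMS641 gave late minus early changes of 1.27 for Gfra1, 0.88 for Meis2, 1.26 for Greb1l, 0.71 for Edil3 and 0.53 for Glra2.

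Pcolce (-0.76), Enpp4 (-0.73), Tmem130 (-0.64), Slc4a11 (-0.62), Extl1 (-0.59) and the membrane peptidase gene Mme (-0.58) were lowest late relative to early. For BMS641 the same contrast gave -0.44, -0.69, -0.42, -0.18, -0.22 and -0.14 in that order. Among all genes tested, 0.481% were called higher late than early and 0.426% lower. Of 23 measured hypoxia and glycolysis genes, 5 were higher late than early and 0 lower, with a median of 0.10 against -0.0043 for all genes. They were Adm (0.65 ± 0.12), Pfkfb3 (0.64 ± 0.11), Egln3 (0.50 ± 0.075), Pfkp (0.32 ± 0.053) and Bnip3 (0.20 ± 0.041). The first is a vasoactive peptide gene, Pfkfb3 and Pfkp act in glycolysis, Egln3 is an oxygen sensor and Bnip3 acts in mitophagy. All 5 calls ended without the 2 h array. Against EtOH, Egln3 (adjusted p = 0.00382) and Adm (adjusted p = 0.0473) passed late, Egln3 not without the 48 h array and Adm not without the 24, 48 or 72 h array or any 1 of the first 3 EtOH arrays. The late minus early count was 7 without the 2 h array, 405 without the 24 h array, 32 without the 48 h array, 40 without the 72 h array, and 118 or 117 without the third or the fourth EtOH array. Without the 2 h array, Gfra1, Glra2, Slc4a11 and Porcn were among the named genes still called.

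Lists of other cell types and programmes were counted at the late times, against 1.05% of all genes higher and 0.813% lower. Of 39 measured neuron genes 1 was higher (Elavl3) and 2 lower (Map2 and Cntn2), with a median of -0.020. Of 37 neural progenitor genes, Fabp7 and Irx3 were higher and Nes, which encodes nestin, lower (-0.42 ± 0.062, adjusted p = 0.000801). None of 27 mesoderm and cardiac, 18 fibroblast and smooth muscle, 12 trophoblast, 32 cell cycle or 22 cholesterol and fatty acid synthesis genes was called. In neural crest Erbb3 was the 1 of 18 called, lower, and in glia Fabp7 was higher and Aldh1l1 lower of 13. The calls of Elavl3, Map2, Cntn2, Fabp7, Irx3, Erbb3 and Aldh1l1 each ended without the 48 h array. Among 24 immediate early and serum genes, Dusp4 (0.52 ± 0.073, adjusted p = 0.000487) and Spry2 (0.40 ± 0.083, adjusted p = 0.0168), both feedback inhibitors of growth factor signalling, were higher, Spry2 not without the first EtOH, the 48 h or the 72 h array. Among 15 p53 target genes Plk3 and Trp53inp1 (0.44 ± 0.065, adjusted p = 0.000958) were higher. The 18 amino acid stress genes had a median of -0.099 with 1 call, Trib3, and 24 Wnt signalling genes a median of 0.076 with 1 call, Wnt8a; both calls ended without the 48 or 72 h array.

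**Figure D4:**
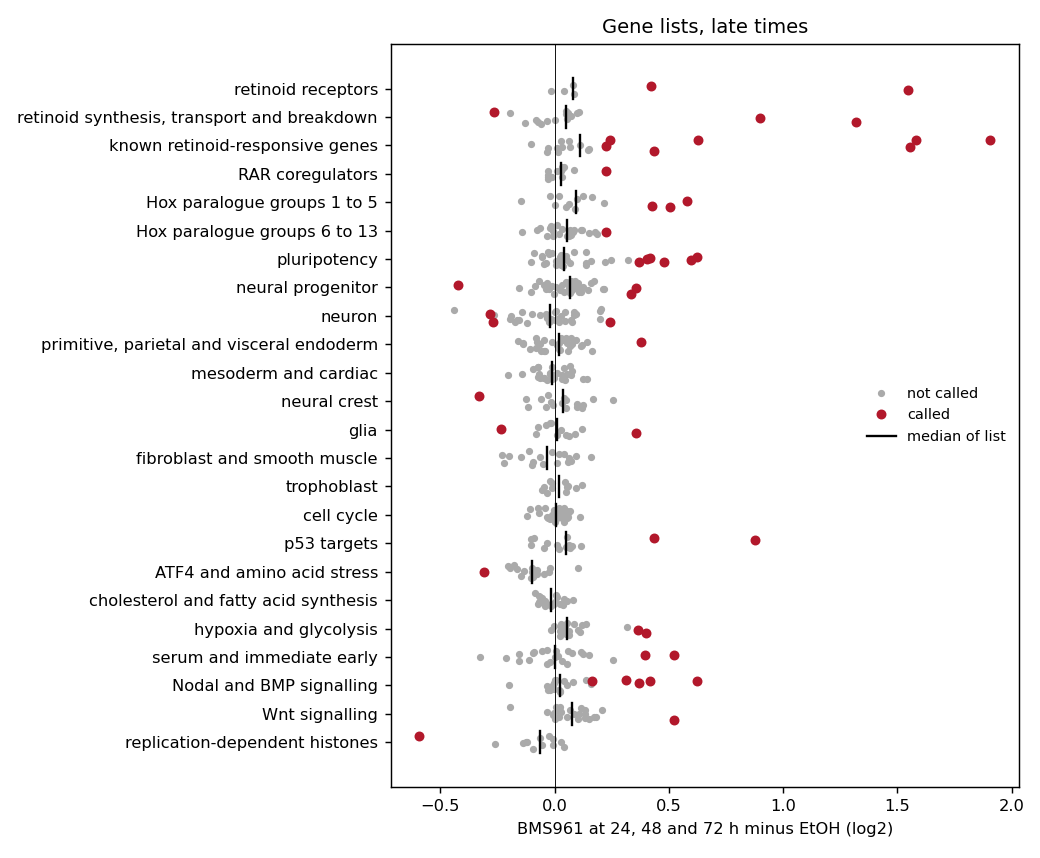
Late change from EtOH (log2, x axis) of every measured member of 24 gene lists; red points passed the adjusted p, grey points did not, and the black bar is the list's median. Among the plotted genes the 5 largest changes, of Gfra1, Greb1l, Meis2, Rarb and Cyp26a1, are in the 3 retinoid lists. The lists were drawn up with results of these data known, and Cltb, which is in no list, is not plotted. The medians of all lists lie between -0.099 and 0.11.

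BMS641, the agonist labelled for RARβ, was used at the same dose and times, so the 2 agonists were compared time by time (limma, 14 arrays, shared time terms). Rarb, Cyp26a1, Gfra1 and Dhrs3 were all higher with BMS961 at each of the 5 times. In all 19 genes differed (0.0953%), 17 higher with BMS961 (0.0853%) and 2 lower (0.01%), none by 2-fold. BMS641 was the 1 agent given at the dose of BMS961, and the p-values are adjusted over all genes.

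For Rarb, BMS641 read 7.05, 7.30, 7.68, 7.55 and 7.50, and the time-matched differences were 0.67, 1.03, 0.91, 1.01 and 0.89. The 2 h array of BMS641 lay within the EtOH range, whereas that of BMS961 lay above it. The mean difference was 0.90 ± 0.053, adjusted p = 1.50e-08, or 1.87-fold. For Cyp26a1 the differences were 0.37, 0.53, 0.77, 1.05 and 0.89, widest at 48 h, with a mean of 0.72 ± 0.088, adjusted p = 0.000562. For Dhrs3 they were 0.23, 0.30, 0.38, 0.57 and 0.58, with a mean of 0.41 ± 0.046, adjusted p = 0.000208. BMS641 held Dhrs3 between 9.07 and 9.22, above EtOH but below every BMS961 array. Gfra1 differed by 0.076, 0.23, 0.48, 0.65 and 0.66, growing with time, with a mean of 0.42 ± 0.066, adjusted p = 0.00892. The calls of Gfra1 and Plekhb1 (0.41 ± 0.067, adjusted p = 0.0132) ended when the 24, 48 or 72 h pair was left out. Bhlhe40, a repressor of the circadian clock, differed by 0.20, 0.27, 0.52, 0.37 and 0.54 (0.38 ± 0.048, adjusted p = 0.000793), and its paralogue Bhlhe41 by 0.32 ± 0.049 on average. Bhlhe40 lay between 9.09 and 9.29 in EtOH, and BMS641 was below the EtOH mean at each time. With BMS961 it was below every EtOH array at 2 h (8.95) and above them from 6 h on. Bhlhe41 was not called against EtOH over all times (adjusted p = 0.28) or late (adjusted p = 0.116). The tyrosine kinase gene Abl1 (0.27 ± 0.031, adjusted p = 0.00031) was higher with BMS961 at all 5 times too, as were Alpl (0.18 ± 0.025, adjusted p = 0.00161) and Dusp4 (0.27 ± 0.048, adjusted p = 0.0271). The call of Dusp4 ended without the fourth EtOH array or the 6, 48 or 72 h pair. Bhlhe41 and Abl1 were singled out after their values were seen. So were further called genes: Atp11b (0.30 ± 0.050, adjusted p = 0.0157), Gadd45b (0.30 ± 0.057, adjusted p = 0.0467), Tet2 (0.26 ± 0.047, adjusted p = 0.0271) and Mcl1 (0.16 ± 0.031, adjusted p = 0.0467). For genes singled out in this way, leaving out time pairs was not examined in this comparison.

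H1f2 and Nr0b1 were the 2 genes lower with BMS961 than with BMS641. With BMS641, H1f2 read 8.53, 8.40, 8.39, 8.39 and 8.31, at or close to the EtOH range of 8.11 to 8.52. The time-matched differences were -0.46, -0.61, -0.63, -0.57 and -0.56, with a mean of -0.56 ± 0.059, adjusted p = 0.000119. Nr0b1 rose with both agonists, to between 11.09 and 11.75 with BMS641 and between 10.97 and 11.52 with BMS961, against 10.66 to 10.81 in EtOH. Its differences were -0.12, -0.29, -0.23, -0.26 and -0.40, with a mean of -0.26 ± 0.035, adjusted p = 0.00161.

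Meis2, Greb1l, Cltb, Plk3 and Porcn were not told apart at this threshold. Meis2 differed by 0.30, -0.021, 0.23, 1.06 and 1.03, about 0 at 6 h and wide at 48 and 72 h (0.52 ± 0.11, adjusted p = 0.112; 95% interval 0.29 to 0.75). Greb1l (0.22, interval 0.11 to 0.32), Cltb (0.30, interval 0.16 to 0.44) and Plk3 (0.15, interval 0.060 to 0.24) were not called, with unadjusted intervals above 0. Porcn differed by 0.054, with an interval of -0.030 to 0.14 that includes 0. Leaving out the 2 h pair gave 53 calls, the 6, 24, 48 or 72 h pair 12, 11, 9 or 10, and the second EtOH array 29.

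**Figure D5:**
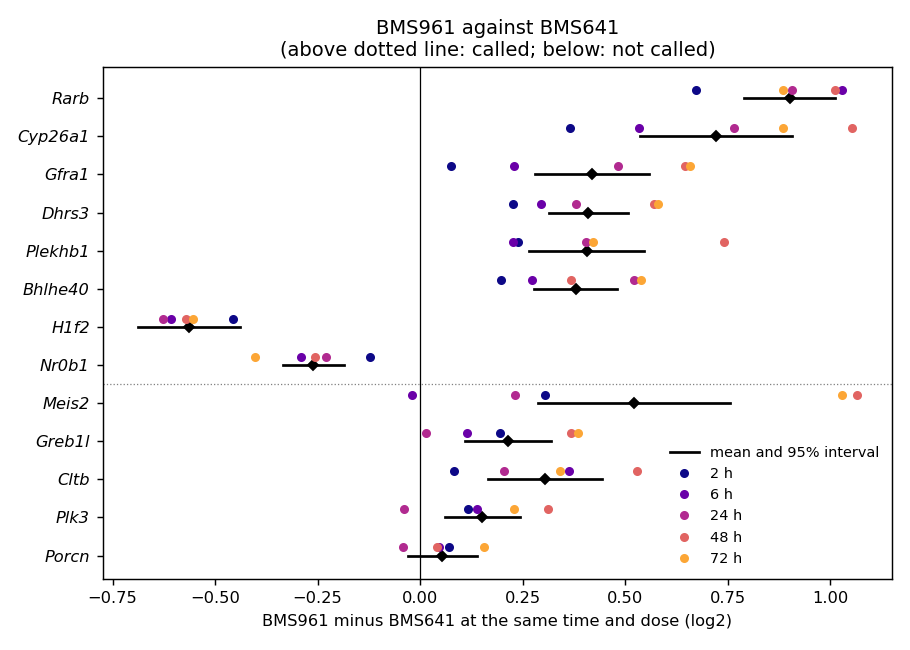
Time-matched log2 differences of BMS961 from BMS641 at the same dose (points, 1 per time), with the mean (diamond) and its 95% interval (bar). The 8 named genes above the dotted line were called, with all 5 points on 1 side of 0; the 5 below it were not called.

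ATRA and BMS753 were used at 1 µM, a higher dose, so their values are given side by side without comparison. At 2, 6, 24, 48 and 72 h, Rarb differed from the EtOH mean by 0.75, 1.37, 1.62, 1.60 and 1.42 with BMS961 at 0.1 µM. The differences were 3.12, 4.45, 4.65, 4.69 and 4.73 with ATRA and 2.56, 3.52, 4.04, 4.27 and 4.28 with BMS753, both at 1 µM. Cyp26a1 differed by 0.19, 0.50, 1.08, 1.40 and 1.47 with BMS961. It differed by 2.55, 4.17, 4.71, 3.92 and 0.93 with ATRA and 1.12, 2.03, 3.33, 2.62 and 2.00 with BMS753. Stra6 differed by -0.035, 0.076, -0.0031, 0.12 and 0.17 with BMS961, by 0.074, 0.50, 1.81, 3.85 and 3.69 with ATRA and by 0.20, 0.24, 0.54, 2.56 and 3.28 with BMS753. Mir302d differed by -1.04, -0.51, -0.61, -0.31 and 0.074 with BMS961. It differed by -1.15, -1.69, -3.37, -3.71 and -3.41 with ATRA and by -1.18, -0.87, -1.01, -2.51 and -3.53 with BMS753. These genes do not stand for all named genes. With BMS961, Gfra1 differed by 1.75, 2.02 and 1.95 at 24, 48 and 72 h. It differed by 3.35, 2.58 and 1.42 with ATRA and by 2.72, 2.07 and 1.51 with BMS753. Cltb differed by 1.34, 1.51 and 1.29 with BMS961 at these times. It differed by 1.75, -0.035 and 1.22 with ATRA and by 2.51, 0.92 and -0.22 with BMS753.

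At single times the spread comes from the EtOH arrays alone, so the following is a description. Genes past both the adjusted p and 2-fold numbered 4 at 2 h (0.0201%), 2 at 6 h (0.01%), 7 at 24 h (0.0351%), and 8 at both 48 and 72 h (0.0401%). At 2 h Plk3 was the 1 higher (0.00502%), and Mir302a, Mir302c and Mir302d were the 3 lower (0.015%). At 6 h they were Rarb and Cltb. Rarb, Cltb, Cyp26a1, Gfra1 and Greb1l were past both limits at 24, 48 and 72 h, and Meis2 at 48 and 72 h. At 72 h Epha4, an ephrin receptor (1.03), and Nt5e, the ectonucleotidase CD73 (1.08), joined them; these were singled out after their values were seen.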

How the data were processed

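Transcripts were measured on Affymetrix Mouse Gene 1.0 ST arrays. The authors deposited log2 intensities per probe set, made with Affymetrix Expression Console 1.1 per the submitters' processing notes. The log2 scale was judged from the values (2.859 to 14.303), and the background correction and normalization are not given in the sources used here. Array number limits the precision, and background levels of single probe sets were not analysed here.

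Of 35556 probe sets, 21789 carried 1 gene symbol, 1621 several and 12146 none in the platform annotation. Several probe sets of a gene (999 genes) were reduced to the brightest, which left 19938 genes. Groups came from the labels. The tests were those of limma 3.58.1 (lmFit, then eBayes with trend; R 4.3.3), two-sided, with Benjamini-Hochberg adjustment over all genes and a call at adjusted p under 0.05. The fits used 9 arrays (BMS961 and EtOH), or 14 with BMS641; ATRA and BMS753 were in no fit. The spread over times is part of the residual, and early (2, 6 h) and late (24, 48, 72 h) arrays served as repeats. The steps were tested on simulated data.

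Named genes were every member of the 3 retinoid lists and every called member of the other lists. To these came the largest changes among called genes: up to 12 each way over all times, 8 late, 5 early, 6 late minus early and 6 against BMS641. Over all times, early and late, their arrays had to lie beyond the EtOH range, and against BMS641 all 5 differences had to share a sign. Small RNAs and unnamed transcripts were passed over, and genes said to be singled out lie outside this rule; leaving out each array for them was added after seeing the data. Promoters were matched to RefSeq (GRCm38.p6) by symbol. The comparison, its members and the lists were chosen with earlier results of these data known. Alternatives were another probe set rule, quantile normalization, a filter on dim genes, robust moderation, a minimum change, added or removed arrays, and each array left out.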

Additional observations from a re-analysis of the deposited data

Results flagged for a closer look

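Single arrays were checked in the EtOH and the BMS961 group for 115 named genes. In 13 of these 230 groups 1 array lay far from the others, and chance alone flags about 1 in 20 groups of repeats. The 5 BMS961 arrays are 5 times and not repeats, so that rate does not apply to them. A BMS961 array that stands apart may reflect its time. Among the EtOH arrays, the first stood high for Cntn2 (7.93) and apart for Hoxb9 (7.55) and Zfp703 (7.15). The second stood apart for Cx3cl1 (10.03), Edil3 (6.78) and Rasgrp3 (5.33), and the fourth for Rarg (9.11). Among the BMS961 arrays, the 2 h array stood apart for H1f2 (8.07), Skil (10.74), Rxrb (8.96), Rxrg (9.20) and Rarres1 (4.87), and the 72 h array for Rbp4 (7.23).

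The late and early effects of BMS961 differed by the test of late minus early for 39 of the named genes, 26 higher late and 13 lower. The difference was 1.71 for Gfra1, 1.52 for Meis2, 1.36 for Greb1l, 0.97 for both Cyp26a1 and Edil3, 0.82 for Glra2 and 0.76 for Porcn. It was 0.65 for Adm, 0.64 for Pfkfb3, 0.63 for both Plekhb1 and Cltb, 0.58 for both Spry2 and Fabp7, 0.53 for both Fgf5 and Dppa2, and 0.50 for Egln3. Smaller rises were those of Dcaf12l1 (0.48), Nanog (0.46), Gbx2 (0.44), Dusp4 (0.42), Bhlhe40 (0.41), Rpl10l and Alpl (both 0.34), Pfkp (0.32), Fbln1 (0.30) and Bnip3 (0.20). Among the falls it was -0.76 for Pcolce, -0.73 for Enpp4, -0.64 for Tmem130, -0.62 for Slc4a11, -0.59 for Extl1 and -0.58 for Mme. It was -0.51 for both Nes and Erbb3, -0.42 for Trib3, -0.39 for Crabp2, -0.37 for Tek and -0.27 for both Krt18 and Spry3. Of these 39, the calls of Gfra1, Glra2, Porcn and Slc4a11 held without the 2 h array.

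BMS961 and BMS641 differed by their direct comparison for 10 genes named by the rule and 7 singled out after their values were seen. For the first 10 the mean difference was 0.90 for Rarb, 0.72 for Cyp26a1, 0.42 for Gfra1, 0.41 for both Dhrs3 and Plekhb1, 0.38 for Bhlhe40, 0.27 for Dusp4, 0.18 for Alpl, -0.26 for Nr0b1 and -0.56 for H1f2. For the other 7 it was 0.32 for Bhlhe41, 0.30 for both Atp11b and Gadd45b, 0.27 for Abl1, 0.26 for Tet2, 0.22 for Dock6 and 0.16 for Mcl1. Of these, Bhlhe41 and Dock6 were not called against EtOH over all times (adjusted p = 0.28 and 0.431) or late (adjusted p = 0.116 and 0.348).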

How the results depend on the processing

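Across the alternatives, named-gene results kept their direction and their side of the threshold in 8135 cases, crossed into a call in 135, lost a call in 515 and reversed in 0. Requiring more than a 1.2-fold change left 3 calls over all times, 4 early, 25 late and 4 late minus early. The all-times count rose to 331 with the BMS641 arrays and shared time terms, and to 217 when the EtOH arrays alone gave the spread. Against BMS641 it was 4 without the time block and 29 with only the 10 agonist arrays. The other settings (probe sets averaged, quantile normalization, the dimmest 33.3% of genes left out, robust moderation, BMS641 arrays added as a group) kept each count within 1.5 times. Leaving out 1 array at a time gave 38 to 251 calls over all times, 18 to 64 early, 143 to 469 late and 7 to 405 late minus early. Leaving out a time pair or an EtOH array gave 9 to 53 against BMS641. At single times the counts at the adjusted p alone were 24, 71, 60, 164 and 279 at 2, 6, 24, 48 and 72 h. Without 1 EtOH array they ranged from 10 to 98, 30 to 120, 46 to 114, 96 to 273 and 160 to 458 in that order. The cause was not tested. BMS961 and BMS641 were matched by time. By replicate number no paired analysis was possible because only the EtOH labels carry such numbers. Each time of BMS961 is 1 array, so no single time has a spread of its own.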

Other observations

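The genes that follow were singled out after their values were seen. Kit, the receptor of stem cell factor, read 7.33, 7.24, 7.36 and 7.41 in the EtOH arrays and 7.30, 7.71, 8.02, 8.08 and 8.04 at 2, 6, 24, 48 and 72 h of BMS961. It lay within the EtOH range at 2 h and above it from 6 h on. The late change was 0.72 ± 0.078, adjusted p = 4.07e-05, against 0.42 with BMS641 (adjusted p = 0.0204). Kit was not called between the agonists, with a direct difference of 0.20 ± 0.054, adjusted p = 0.325. Tet2, an enzyme that oxidises methylated cytosine, changed late by 0.40 ± 0.058, adjusted p = 0.000825, and by 0.11 with BMS641 (adjusted p = 0.617). The direct difference between the agonists was 0.26 ± 0.047, adjusted p = 0.0271. The DNA methyltransferase gene Dnmt3a changed late by 0.30 ± 0.048, adjusted p = 0.00182, and the direct difference between the agonists was 0.045 ± 0.026, adjusted p = 0.867. Gadd45b, a stress-induced gene, changed late by 0.68 ± 0.066, adjusted p = 1.01e-05, and Mcl1, an inhibitor of apoptosis, by 0.35 ± 0.047, adjusted p = 0.000361. BMS641 gave late differences of 0.24 for Dnmt3a, 0.29 for Gadd45b and 0.20 for Mcl1, none called. The 5 late calls with BMS961 held without each array in turn.

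Cldn6, a claudin of tight junctions, read 11.76, 11.68, 11.61 and 11.61 with EtOH and 11.66, 11.60, 11.51, 11.32 and 11.22 with BMS961. Its late change was -0.31 ± 0.052, adjusted p = 0.00285, held without each array in turn, and BMS641 gave -0.11. Ocln, which encodes occludin, changed by -0.43 ± 0.085, adjusted p = 0.0121, Marveld2 by -0.28 ± 0.055 and Cdh3, which encodes P-cadherin, by -0.31 ± 0.059. Each of these calls ended without the 72 h array, and that of Cdh3 also without the 48 h array. Grhl2, a transcription factor of epithelia, changed by -0.39 ± 0.077, and Zeb1, a repressor of epithelial genes, by 0.39 ± 0.079; both calls ended without the 48 or 72 h array. Cdh1, which encodes E-cadherin, was not called late (-0.13 ± 0.043, adjusted p = 0.2), and neither was Crb3 (-0.30 ± 0.076, adjusted p = 0.0572). These genes were picked by their values and not counted as a list, and 0.813% of all genes were called lower late. A change of epithelial genes as a set was not tested. BMS641 gave -0.13 for Ocln, -0.14 for Marveld2, -0.23 for Cdh3, -0.21 for Grhl2, 0.17 for Zeb1 and -0.090 for Cdh1. None of these 6 genes, nor Cldn6, was called between the agonists.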
